A study of Mus musculus with 6 samples.

Results

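The F-box and cullin ubiquitin ligase genes were examined in single mouse morulae that lacked Rbpj, which encodes the transcription factor of the Notch pathway. The members were taken by symbol from the deposited table: the numbered F-box genes (Fbxo, Fbxl and Fbxw), the numbered cullins, and Skp1a, Skp2, Rbx1, Rnf7, Btrc, Cand1 and Nedd8, without pseudogene symbols. This gave 63 of the 12125 genes in the table, and the rule uses no measured value. They comprised 29 Fbxo genes, 12 Fbxl genes (with Skp2), 9 Fbxw genes (with Btrc), 8 cullins, the adaptor Skp1a, the 2 RING subunits Rbx1 and Rnf7, and the regulators Nedd8 and Cand1.

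The embryos were whole morulae collected at embryonic day 2.5 in an outbred background and without treatment. The mutants (Rbpj-/-) carried a null allele on both chromosomes, 2 of them from litter 808 (embryos 6 and 7) and 1 from litter 810 (embryo 4). The controls were all from litter 808, namely 1 heterozygote (Rbpj+/-, embryo 1) and 2 wildtype embryos (Rbpj+/+, embryos 3 and 4). Litter 810 contributed a single mutant and no control, so its litter and genotype cannot be told apart. The parents were heterozygous, so that maternal Rbpj product is possible in every embryo. Each library came from 1 embryo, amplified from poly(A) RNA by SMART-Seq (Ultra Low Input kit), and fewer cells in an embryo and less RNA per cell cannot be told apart in such libraries.

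Cullin-RING ligases attach ubiquitin to proteins, mostly to mark them for the proteasome. A cullin is the scaffold: its far end holds a RING subunit (RBX1, or RNF7 with CUL5) that recruits the ubiquitin-loaded E2 enzyme, and its near end holds an adaptor with a substrate receptor. In SCF ligases the cullin is CUL1, the adaptor is SKP1 and the receptor is one of many F-box proteins, named FBXW for WD40 repeats, FBXL for leucine-rich repeats and FBXO for other domains. Attachment of the small protein NEDD8 activates the cullin, the COP9 signalosome removes it, and CAND1 binds the bare cullin and exchanges receptors. FBXW7 is the receptor through which the Notch intracellular domain, the partner of RBPJ, is turned over.

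The values are read counts per gene, normalised by the authors to library size and composition, and are called normalised read counts here. Reads recovered from the values, over the genes with a deposited value only, numbered 2962425 and 4330126 in the litter 808 mutants and 10064016 in the litter 810 mutant. In the controls they numbered 12690030 to 14585313. By this count the shallowest libraries were both mutants of litter 808. A count of 3 reads corresponded to a value of 1.09, 0.738 and 0.282 in the mutants and of 0.201 to 0.231 in the controls, and this limit covers counting error only. Rbpj had 10.5, 24.3 and 1.32 in the mutants, against 37.0 (heterozygote), 111 and 96.9 (wildtype) in the controls, and since the authors read the genotypes from Rbpj and Neo expression this is no independent check of the labels. All 11 morula markers were measured, with a summed value of 5352 to 7391 in mutants and 4841 to 5339 in controls, every mutant above every control. The sum pools genes that the paper reports as lower in mutants, such as Cdx2 and Gata3, with Dppa3, which it reports as higher. No cumulus or granulosa marker (0 of 9) was in the table. The list for oviduct epithelium held Epcam, Foxj1, Krt7, Ovgp1 and Pax8. These 5 markers summed to 229 to 326 in mutants and 250.1 to 360 in controls. They were not looked at singly, so their sum does not show that oviduct cells were present. For 5 of 6 blood markers the sum was 210 and 41.5 in the litter 808 mutants and 7305 in the litter 810 mutant. It was 1110 in the heterozygote and 5.39 and 5447 in wildtype embryos 3 and 4. The groups overlapped in both lists.

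All 63 members had a value above 1 in at least 3 embryos and were tested among the 12099 genes that did. Of the 63, 44 exceeded 1 in all 6 embryos. Fbxw24 passed through the controls alone, with no mutant above 1, so that its presence in the test already required a difference.

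The comparisons were made on log2(value + 1) with limma, adjusted over 12099 genes. With genotype as the only term, over all 6 embryos, none of the 63 members and none of the 12099 genes reached an adjusted p under 0.05 (lowest 0.142). At an unadjusted p under 0.05, 11 members were lower in mutants, against 11.4% of all genes tested, and 5 were higher, against 5.03%. The quasi-likelihood test of edgeR on recovered reads also called no gene after adjustment. It gave 5 lower and 5 higher members at an unadjusted p under 0.05 (7.43% and 5.28% of all genes). The paper reports many differentially expressed genes from its own edgeR run, and this run does not reproduce that result. DESeq2 called Fbxw11 and Fbxw8 lower (adjusted p = 0.014 and 0.040) and Rbx1 higher (adjusted p = 0.032) among 37 members that it gave an adjusted p, where 3.58% and 2.16% of all genes were called.

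With litter as a second term, the comparison set the 2 mutants of litter 808 against their 3 control littermates. Here 11 members were lower in mutants, 17.5% of the 63, where 11.3% of all genes were called lower. They were Cand1, Cul4a, Cul5, Fbxw8, Fbxw11, Fbxw24, Fbxl14, Fbxo34, Fbxo38, Fbxo42 and Fbxo45. Fbxw24 is in the count although its entry to the test fixed its direction. Without the genes that exceeded 1 in all embryos of 1 group and in none of the other, 10 of 62 members were lower (16.1%, where 11.2% of the genes left were) and 6 higher (9.68%, where 5.82% were), a count added after the data were seen. Over all 63, another 6 members, 9.52%, were higher, where 5.85% of all genes were: Skp1a, Rbx1, Rnf7, Nedd8, Fbxo15 and Fbxl2. Among the controls Fbxl2 exceeded 1 in wildtype embryo 3 alone (1.69), so its entry to the test depended on high mutants. It is in both counts of higher members, and its call is no evidence free of the filter. On recovered reads, edgeR called 9 members lower and 5 higher (7.88% and 4.75% of all genes) and DESeq2 called 11 and 5 of 61 (15.1% and 11.1% of all genes). The median log2 fold change was -0.42 over the members and -0.16 over all genes between littermates, and -0.20 and -0.11 over all 6 embryos. All mutants lay below all controls in 11 members (12.8% of all genes) and above them in 6 (8.91% of all genes). An exact permutation test of 3 mutants against 3 controls cannot give a two-sided p below 0.1 for a single gene.

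**Figure D1:**
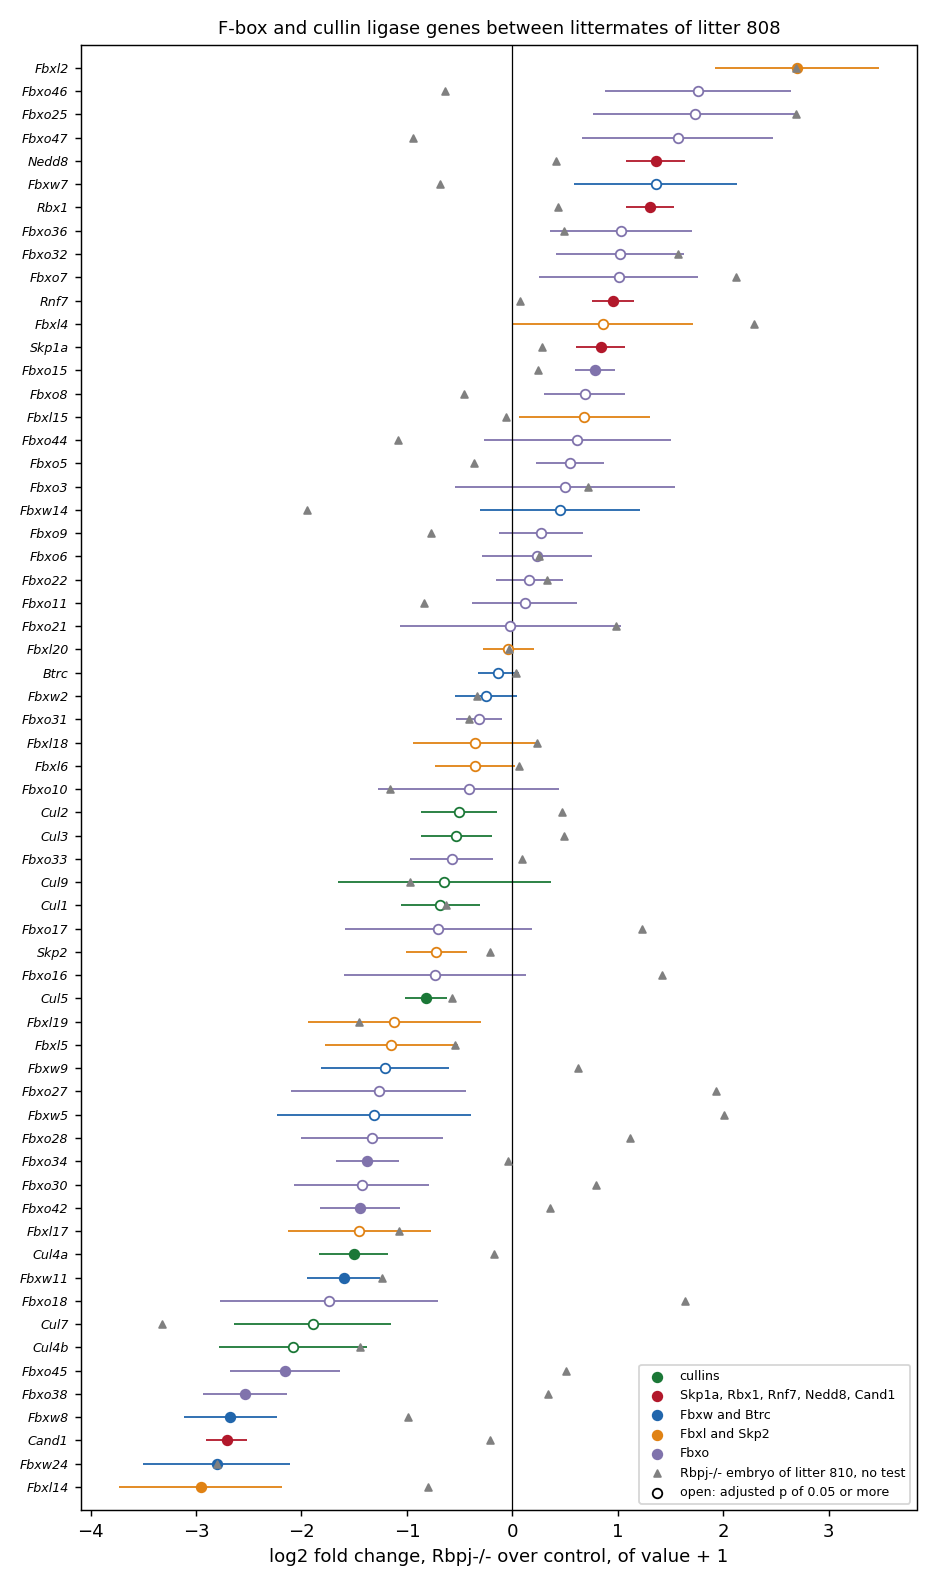
Log2 fold change of value + 1 for the 63 genes, except 1 that is not shown, mutants over controls, on the x axis. Circles are the littermate comparison with bars of 1 SE (filled where the adjusted p was under 0.05, coloured by role), and grey triangles are the litter 810 mutant minus the mean of the controls, with no test. The 11 filled circles on the left run from Fbxl14 to Cul5 and include Fbxw24, whose entry to the test fixed its direction. The 6 on the right run from Fbxo15 to Fbxl2, whose entry to the test depended on high mutants. All 8 cullins lie left of 0, as do 6638 of all 12099 genes tested.

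Transcript length moved with these fold changes and is given beside them. The mutants of litter 808 had, relative to the controls, lower values in genes with long transcripts over the whole table (Spearman correlation across 11995 genes of -0.40 and -0.38; -0.15 in the litter 810 mutant). Across the 63 members the correlation was -0.26 and -0.30, and -0.05 in the litter 810 mutant, as a description over genes of shared libraries. The longest annotated transcript had a median of 4179 bases in the 11 lower members, 2143 in the 6 higher members and 3894 in the 46 members that were not called. When the length trend was removed from each embryo, 8 members were lower (6.70% of all genes) and 3 higher (2.89% of all genes). The calls of Cul5, Fbxo42, Fbxo45, Skp1a, Rnf7 and Nedd8 were lost, and the median over the members became -0.14, beside -0.19 over all genes.

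**Figure D2:**
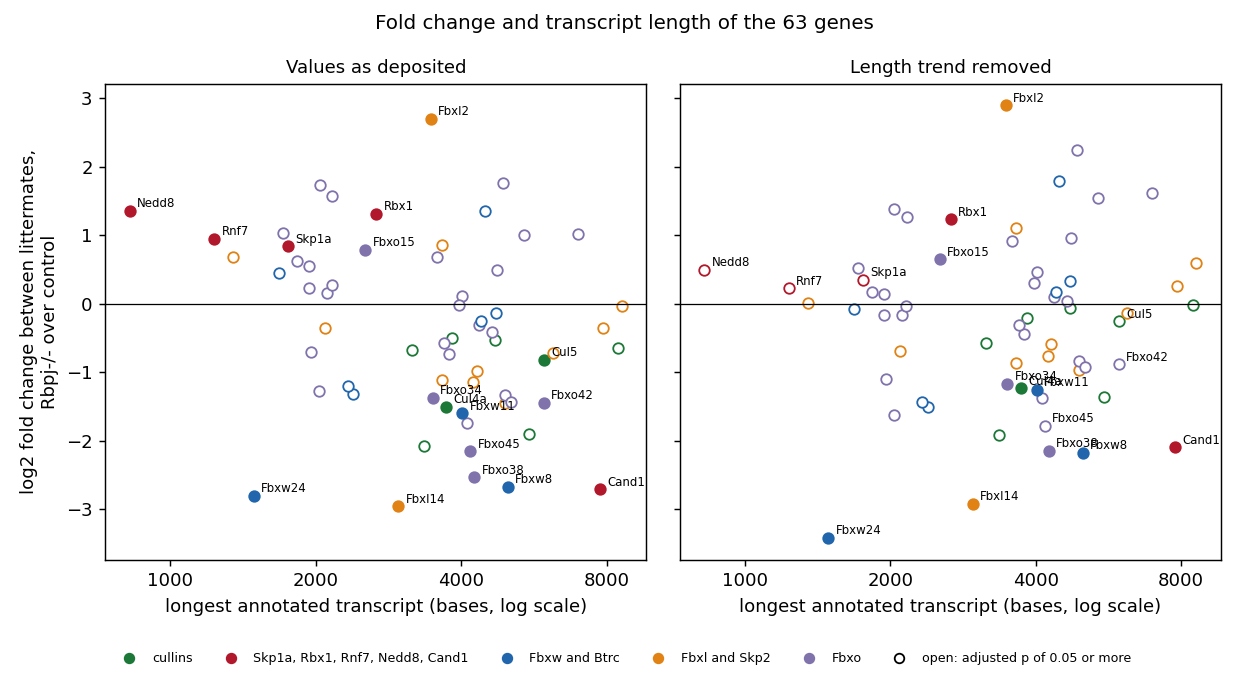
Log2 fold change between littermates (mutants over controls) against the longest annotated transcript of each of the 63 genes in bases on a log axis, with the values as deposited on the left and after removal of the length trend on the right. Filled points had an adjusted p under 0.05, and the 17 genes called on the left are named in both panels. Nedd8, Rnf7 and Skp1a, with 824 to 1754 bases, are filled on the left and open on the right, whereas Cand1, with 7766 bases, is filled in both.

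The cullins, the scaffolds, lay on one side of 0. All 8 had a negative log2 fold change in both comparisons, with a median of -0.75 in each. Of all 12099 genes tested, 6638 were below 0 between littermates and 6630 over all 6 embryos. Between littermates 2 of the 8, Cul4a and Cul5, were called lower, where 11.3% of all genes were. Removing the length trend kept all 8 below 0 between littermates, and put Cul2 and Cul3 above 0 over all 6 embryos (0.02 and 0.16). Leaving out mutant 6 put Cul1 and Cul2 at 0.03 and 0.04 between littermates, and leaving out mutant 7 put Cul9 at 0.78. Their summed level per kb of transcript was 143, 226 and 247 in the mutants, against 290, 362 and 275 in the controls, so that every mutant lay below every control. After removal of the length trend the median of the cullins was -0.42 and 1 of 8 was called lower, where 6.70% of all genes were.

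CUL5, which works with elongins and SOCS-box receptors and with RNF7, was the most abundant cullin per kb. Cul5 had 451 and 438 in the litter 808 mutants and 526 in the litter 810 mutant, against 778 in the heterozygote, 907 and 681 in wildtype littermates. All 3 mutants were below all 3 controls, and the log2 fold change between littermates was -0.82 ± 0.20 (SE; adjusted p = 0.024). Over all 6 embryos it was -0.74 ± 0.25 (SE; adjusted p = 0.205). Removal of the length trend left a fold change of -0.25 ± 0.18 (SE; adjusted p = 0.423) for its transcript of 5945 bases, and leaving out any of the 3 controls gave an adjusted p of 0.058 to 0.104. Cul5 made up 52.9%, 32.6% and 35.8% of the summed cullin level per kb in the mutants and 45.0%, 42.1% and 41.7% in the controls, with the groups overlapping.

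CUL4A and CUL4B are paralogs that hold DDB1 and the DCAF receptors. Cul4a had 30.5 and 29.99 in the litter 808 mutants and 77.5 in the litter 810 mutant, against 92.7 in the heterozygote, 109 and 66.4 in wildtype littermates. Both litter 808 mutants were below every control, while the litter 810 mutant lay within the controls. The fold change between littermates was -1.51 ± 0.33 (SE; adjusted p = 0.016), and -1.23 ± 0.32 (SE; adjusted p = 0.042) with the length trend removed, and the call was lost without the heterozygote (adjusted p = 0.067) or without wildtype embryo 3 (adjusted p = 0.080). Cul4b, on the X chromosome, had 3.63 and 29.01 in the litter 808 mutants and 17.2 in the litter 810 mutant, against 42.7 in the heterozygote, 48.5 and 55.9 in wildtype littermates. Its mutants were also all lower than its controls, but the fold change of -2.08 ± 0.70 (SE; adjusted p = 0.071) did not pass, the mutants being spread from 3.63 to 29.0. Without mutant embryo 7 the adjusted p of Cul4b was 0.004, and among genes with a mean value of at least 10 it was 0.045.

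CUL7, which pairs with FBXW8, and CUL9, a p53-binding relative, were the least abundant. Cul7 had 0.726 and 3.20 in the litter 808 mutants and 0 in the litter 810 mutant, against 8.68 in the heterozygote, 9.03 and 9.31 in wildtype littermates, again without overlap, and its fold change between littermates was -1.89 ± 0.74 (SE; adjusted p = 0.110). Cul9 had 6.17 and 0 in the litter 808 mutants and 1.13 in the litter 810 mutant, against 2.69 in the heterozygote, 1.21 and 7.97 in wildtype littermates, with the groups overlapping (fold change -0.64 ± 1.01 (SE; adjusted p = 0.707)).

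CUL1, CUL2 and CUL3, the scaffolds of the SCF, VHL and BTB-protein ligases, did not pass either comparison. Cul1 had 86.4, 232 and 147 in the mutants, against 228, 268 and 194 in the controls, with the litter 808 mutants 6 and 7 far apart and a fold change between littermates of -0.68 ± 0.38 (SE; adjusted p = 0.246). Cul2 had 75.9, 163 and 219 in the mutants, against 122, 216 and 150.4 in the controls (fold change -0.50 ± 0.36 (SE; adjusted p = 0.374)). Cul3 had 47.9, 90.2 and 135 in the mutants, against 77.1, 107 and 105 in the controls (fold change -0.53 ± 0.34 (SE; adjusted p = 0.310)). For Cul2 and Cul3 the litter 810 mutant was above all controls and mutant 6 below all of them, so that the sign over all 6 embryos (-0.18 and -0.19) turned when mutant 6 was left out (0.25 and 0.21).

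The RING subunits and the adaptor were higher in the same embryos. RBX1 is the RING subunit of CUL1 to CUL4 ligases. Rbx1, at chr15:81466296-81476369 (plus strand) in GRCm38, had 471 and 344 in the litter 808 mutants and 219 in the litter 810 mutant, against 161 in the heterozygote, 168 and 156 in wildtype littermates. The 3 controls were nearly equal and every mutant was above them, the litter 808 mutants most. The fold change was 1.31 ± 0.23 (SE; adjusted p = 0.0066) between littermates, 1.23 ± 0.23 (SE; adjusted p = 0.013) with the length trend removed and 1.02 ± 0.32 (SE; adjusted p = 0.200) over all 6 embryos. Only without the variance trend was the littermate call lost (adjusted p = 0.084).

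RNF7, the RING subunit of CUL5 ligases, and SKP1, the adaptor between CUL1 and F-box proteins, followed the same pattern less firmly. Rnf7 had 1232 and 1184 in the litter 808 mutants and 655 in the litter 810 mutant, against 564 in the heterozygote, 746 and 579 in wildtype littermates. The litter 808 mutants were above every control and the litter 810 mutant was not, with a fold change between littermates of 0.95 ± 0.20 (SE; adjusted p = 0.014). Skp1a had 387 and 309 in the litter 808 mutants and 235 in the litter 810 mutant, against 202 in the heterozygote, 217 and 164 in wildtype littermates, all mutants being above all controls, with a fold change of 0.84 ± 0.23 (SE; adjusted p = 0.035). Both calls were lost with the length trend removed, where the fold changes were 0.23 ± 0.20 (SE; adjusted p = 0.536) and 0.35 ± 0.22 (SE; adjusted p = 0.357). The Rnf7 call was also lost without the heterozygote or wildtype embryo 4 (adjusted p = 0.068 and 0.067), and that of Skp1a without any single embryo of litter 808 other than mutant 7 (adjusted p = 0.084 to 0.122). Of the 60-base windows of the Rnf7 transcript 24.3% also occur in other annotated genes, among them Emb, so its reads may be shared.

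**Figure D3:**
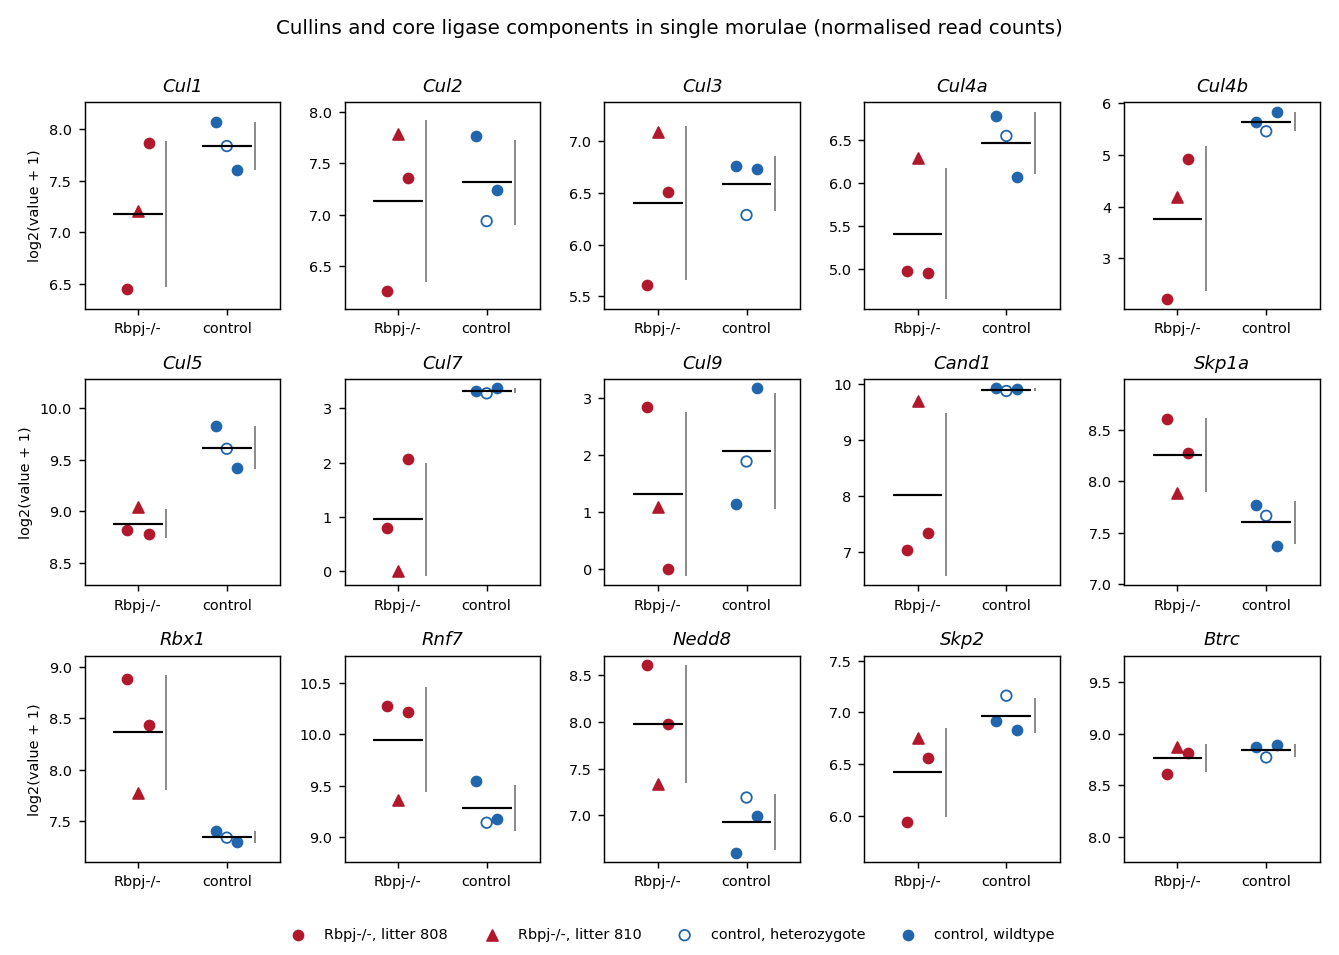
Log2(value + 1) of normalised read counts for the 8 cullins and 7 other core or receptor genes, 1 panel a gene, with mutants left and controls right. Points are single embryos, horizontal lines are group means and grey bars are 1 SD (n = 3 each). In the panels of Cul4b, Cul5, Cul7, Cand1 and Skp2 every mutant lies below every control, and in those of Skp1a, Rbx1 and Nedd8 every mutant lies above.

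NEDD8 is the modifier that switches cullins on. Nedd8 had 388 and 251 in the litter 808 mutants and 161 in the litter 810 mutant, against 145 in the heterozygote, 96.1 and 126 in wildtype littermates. Every mutant was above every control, and the fold change between littermates was 1.36 ± 0.28 (SE; adjusted p = 0.013). With the length trend removed it was 0.49 ± 0.23 (SE; adjusted p = 0.217), Nedd8 having the shortest transcript of the members with 824 bases. Without mutant 6 or wildtype embryos 3 or 4 the adjusted p was 0.0605, 0.065 and 0.055. Its exons overlap Gmpr2 on the opposite strand, with 16.3% of 60-base windows in common, and the kit does not keep strand.

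CAND1, the exchange factor that binds cullins without NEDD8, had the smallest adjusted p of the 63 members between littermates. Cand1, at chr10:119199255-119240055 (minus strand) in GRCm38, had 131 and 162 in the litter 808 mutants and 827 in the litter 810 mutant, against 939 in the heterozygote, 969 and 959 in wildtype littermates. The controls were nearly equal, the litter 810 mutant lay just under them and the litter 808 mutants were far below. The fold change was -2.71 ± 0.19 (SE; adjusted p = 0.00051) between littermates, -2.10 ± 0.19 (SE; adjusted p = 0.0013) with the length trend removed and -1.87 ± 0.56 (SE; adjusted p = 0.194) over all 6 embryos. The littermate call was kept under every alternative run, the adjusted p being at most 0.048 (without the variance trend). The litter 810 mutant differed from the mean of the controls by -0.21 on the log2 scale.

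Set against each other, Skp1a, Rbx1, Rnf7 and Nedd8 summed to 1868, 1570 and 943 per kb in the mutants and 809, 909 and 775 per kb in the controls. Their ratio to the summed cullins was 13.0, 6.95 and 3.82 in the mutants, against 2.79, 2.51 and 2.82 in the controls. All mutants were above all controls in this ratio, and the litter 810 mutant was nearest to them. The ratio sets the core components called higher between littermates against the cullins, and leaves out Cand1, which was called lower. It therefore restates differences already given and is no further support for them. These 4 genes have transcripts of 824 to 2669 bases and the cullins of 3161 to 8451, and the part of transcript length in the ratio was not tested.

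Promoter sequence was looked up for the 49 members present in the RefSeq promoter table (GRCm38.p6, 250 bases before to 50 after the start), because RBPJ binds DNA at a short core, GTGGGAA. The core was searched on both strands (as GTGGGAA or TTCCCAC, which do not overlap each other). A gene was counted if any of its promoters held the core. This was so for 5 of the 49 members (10.2%), namely Fbxl17, Fbxl19, Fbxo6, Fbxo10 and Rbx1, and for 1958 of all 27025 genes with a promoter there (7.25%). The windows of the first site in each of these, printed as bases of the gene's own strand with the core in capitals, show how differently it is embedded.
Rbx1, chr15:81466073-81466119: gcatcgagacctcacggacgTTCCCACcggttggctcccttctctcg
Fbxl17, chr17:63500675-63500721: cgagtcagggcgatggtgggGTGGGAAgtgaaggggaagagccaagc
Fbxl19, chr7:127746080-127746126: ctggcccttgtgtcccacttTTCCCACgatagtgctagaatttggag
Fbxo6, chr4:148151902-148151948: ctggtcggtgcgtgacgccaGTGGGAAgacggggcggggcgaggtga
Fbxo10, chr4:45084704-45084750: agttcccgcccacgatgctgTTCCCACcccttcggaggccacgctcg
A match is a run of letters and not evidence of binding, and of these 5 genes only Rbx1 was called.

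The whole promoters of Rbx1 and Cand1 are shown because these 2 genes carried the steadiest increase and the steadiest decrease among the core components. Both are rich in G and C (70.7% for Rbx1 and 71.0% for Cand1), and that of Cand1 holds no such core in this window.
Rbx1, chr15:81466066-81466365, plus strand: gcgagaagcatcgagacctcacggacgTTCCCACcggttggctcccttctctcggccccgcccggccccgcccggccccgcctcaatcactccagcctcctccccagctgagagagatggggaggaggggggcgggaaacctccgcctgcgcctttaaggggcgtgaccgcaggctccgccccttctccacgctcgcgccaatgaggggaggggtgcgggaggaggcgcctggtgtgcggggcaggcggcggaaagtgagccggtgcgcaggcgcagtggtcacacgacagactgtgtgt
Cand1, chr10:119240006-119240305, minus strand: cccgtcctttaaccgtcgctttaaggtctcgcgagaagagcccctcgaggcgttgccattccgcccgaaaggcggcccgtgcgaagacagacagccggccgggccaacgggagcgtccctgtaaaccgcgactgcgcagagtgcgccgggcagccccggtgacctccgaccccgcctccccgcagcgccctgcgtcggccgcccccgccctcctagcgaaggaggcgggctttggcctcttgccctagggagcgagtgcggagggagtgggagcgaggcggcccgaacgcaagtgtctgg

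Among the substrate receptors, the 9 Fbxw genes had a median log2 fold change between littermates of -1.21, the 12 Fbxl genes of -0.54 and the 29 Fbxo genes of 0.12, beside -0.16 over all genes. The Fbxw median, with or without the length trend, includes Fbxw24, whose entry to the test fixed its direction. With so few genes this member can move the median, so the families are not ranked by it. Of the 50 F-box genes 8 were lower, Fbxw24 among them, and 2 higher, where 11.3% and 5.85% of all genes were called. With the length trend removed the medians were -1.26, -0.36 and 0.04, and 6 were lower, again with Fbxw24, and 2 higher (6.70% and 2.89% of all genes).

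FBXW8 is the F-box partner of CUL7. Fbxw8, at chr5:118064965-118155464 (minus strand), had 5.81 and 8.36 in the litter 808 mutants and 24.7 in the litter 810 mutant, against 56.3 in the heterozygote, 47.7 and 46.4 in wildtype littermates. All mutants were below all controls, with a fold change of -2.67 ± 0.44 (SE; adjusted p = 0.0055) between littermates and -2.18 ± 0.43 (SE; adjusted p = 0.015) with the length trend removed. The littermate call was kept under every alternative run (adjusted p at most 0.048). One limit is that 33.9% of the 60-base windows of Fbxw8 lie in the antisense gene Gm9754, whose reads cannot be separated without strand.

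BTRC and FBXW11 are the paired β-TrCP receptors, which recognise phosphorylated β-catenin, CDC25A and WEE1. Fbxw11 had 37.7 and 26.8 in the litter 808 mutants and 41.2 in the litter 810 mutant, against 79.2 in the heterozygote, 92.2 and 131 in wildtype littermates. Its mutants were all below its controls, and the fold change was -1.60 ± 0.34 (SE; adjusted p = 0.015) between littermates, -1.26 ± 0.35 (SE; adjusted p = 0.050) with the length trend removed and -1.48 ± 0.36 (SE; adjusted p = 0.174) over all 6 embryos. Without wildtype embryos 3 or 4 the adjusted p was 0.066 and 0.067. Btrc had 389.8 and 448 in the litter 808 mutants and 469 in the litter 810 mutant, against 436 in the heterozygote, 466 and 473 in wildtype littermates. The 6 embryos lay between 389.8 and 473, with overlap, and the fold change was -0.13 ± 0.19 (SE; adjusted p = 0.684).

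FBXW7, the receptor for the Notch intracellular domain, cyclin E, MYC and JUN, had few reads, 5 to 45 per embryo. Fbxw7 had 5.81 and 5.16 in the litter 808 mutants and 0.565 in the litter 810 mutant, against 1.998 in the heterozygote, 0.337 and 3.01 in wildtype littermates. Mutants and controls overlapped, and the fold change between littermates was 1.36 ± 0.77 (SE; adjusted p = 0.259). FBXW2, known in human placental cells as a receptor for GCM1, and FBXW9 did not pass. Fbxw2 had 83.1, 76.7 and 75.2 in the mutants, against 115, 100.5 and 74.4 in the controls (fold change -0.25 ± 0.29 (SE; adjusted p = 0.603)), and Fbxw9 had 15.2, 4.92 and 33.8 in the mutants, against 22.7, 30.6 and 14.5 in the controls (fold change -1.21 ± 0.61 (SE; adjusted p = 0.204)).

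A cluster of Fbxw genes on chromosome 9 is transcribed mainly in oocytes. Of 15 such symbols 2 were measured, Fbxw24 and Fbxw14. Fbxw24 had 0 and 0 in the litter 808 mutants and 0 in the litter 810 mutant, against 4.69 in the heterozygote, 7.55 and 6.03 in wildtype littermates. No read was recovered in any mutant, and against the floor of 3 reads in the shallowest library the mean was at least 5.59-fold lower in mutants. Its p-value is not printed, and its littermate call, though counted above, is no evidence of a difference. It entered the comparison only through the controls, and leaving out a control took it under the filter. Fbxw14 had 7.62 and 2.21 in the litter 808 mutants and 0 in the litter 810 mutant, against 2.84 in the heterozygote, 2.36 and 3.42 in wildtype littermates, with overlap and a fold change of 0.45 ± 0.76 (SE; adjusted p = 0.728). Its identifier carries the name Fbxw28 in GENCODE release 21, and 61.0% of its 60-base windows occur in other genes of the cluster. The sum of both genes did not pass between littermates (log2 fold change -0.91, adjusted p = 0.441). Markers of oocytes and maternal RNA, of which 8 of 15 were measured, summed to 104, 174 and 106 in the mutants and to 69.6, 86.8 and 75.9 in the controls, so they were higher in mutants while Fbxw24 was lower, and their part in these values was not tested.

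**Figure D4:**
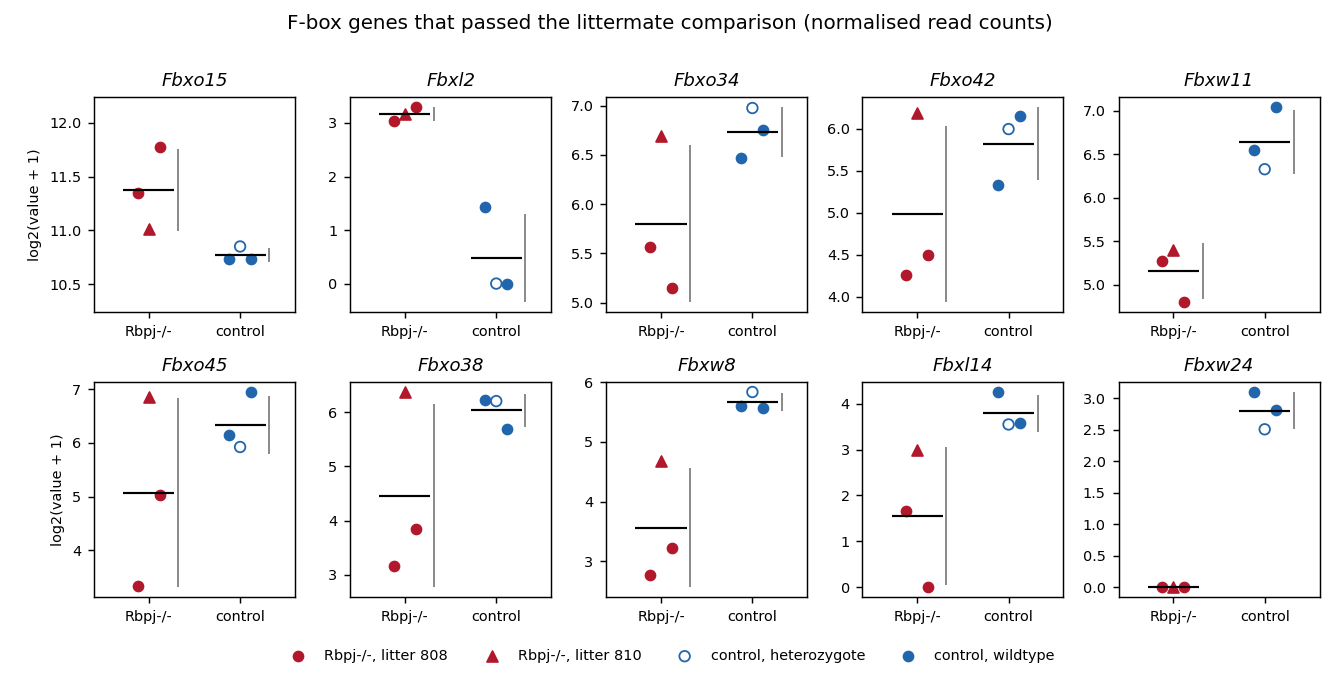
Log2(value + 1) of normalised read counts for the 10 F-box genes called between littermates, 1 panel a gene, with mutants left and controls right. Points are single embryos, horizontal lines are group means and grey bars are 1 SD (n = 3 each). The litter 810 mutant, drawn as a triangle, lies with the controls in the panels of Fbxo34, Fbxo42, Fbxo45 and Fbxo38 and with the other mutants in those of Fbxl2, Fbxw11 and Fbxw24. Fbxw24 entered the test only through the controls.

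The Fbxl family contained 1 lower and 1 higher gene among 12, where 11.3% and 5.85% of all genes were called. FBXL14 is a receptor for SNAIL proteins. Fbxl14 had 2.18 and 0 in the litter 808 mutants and 6.96 in the litter 810 mutant, against 10.7 in the heterozygote, 18.1 and 10.9 in wildtype littermates, without overlap, and a fold change of -2.96 ± 0.77 (SE; adjusted p = 0.030). The call was lost with edgeR (adjusted p = 0.131), with a pseudocount of 0.1 (adjusted p = 0.053), without mutant 7 (adjusted p = 0.084) and without any of the controls (adjusted p = 0.074 to 0.108). Fbxl2 had 7.26 and 8.85 in the litter 808 mutants and 8.0 in the litter 810 mutant, against 0 in the heterozygote, 1.69 and 0 in wildtype littermates. All 3 mutants were nearly equal and above all controls, 2 of which were at 0, with fold changes of 2.70 ± 0.78 (SE; adjusted p = 0.041) between littermates and 2.70 ± 0.70 (SE; adjusted p = 0.174) over all 6 embryos. Its call was lost with edgeR (adjusted p = 0.244), with DESeq2 (adjusted p = 0.134), with a pseudocount of 0.1 or reads thinned to equal depth (adjusted p = 0.080 and 0.054) and on leaving out any embryo of litter 808 (adjusted p = 0.063 to 0.119). Of its 60-base windows 12.8% lie in Ubp1, which overlaps it on the opposite strand.

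SKP2 is the receptor for the cell cycle inhibitor p27. Skp2 had 60.3, 93.4 and 107 in the mutants, against 142, 119.8 and 113 in the controls, the mutants being below the controls, but the fold change of -0.72 ± 0.29 (SE; adjusted p = 0.116) did not pass except without mutant 7 (adjusted p = 0.037). FBXL5, an iron-sensing receptor, was led by 1 high wildtype embryo. Fbxl5 had 11.98, 40.1 and 34.1 in the mutants, against 29.7, 39.9 and 106 in the controls (fold change -1.15 ± 0.63 (SE; adjusted p = 0.243)). Fbxl17, a receptor that removes mispaired BTB proteins, had 3.27, 6.64 and 6.40 in the mutants, against 11.8, 24.1 and 10.9 in the controls (fold change -1.45 ± 0.68 (SE; adjusted p = 0.172)). Fbxl20, the most abundant Fbxl gene, had 439.5, 725 and 566 in the mutants, against 594, 528 and 622 in the controls, with overlap. Its fold change of -0.04 ± 0.24 (SE; adjusted p = 0.933) was the closest to 0 in the family, and became 0.59 ± 0.25 (SE; adjusted p = 0.181) with the length trend removed from its transcript of 8601 bases. Fbxl6 and Fbxl18 overlapped too, with fold changes of -0.35 ± 0.38 (SE; adjusted p = 0.573) and -0.35 ± 0.59 (SE; adjusted p = 0.728).

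The Fbxo family was led by Fbxo15, which marks undifferentiated embryonic stem cells and is a known target of OCT4 and SOX2. Fbxo15 had 2598 and 3498 in the litter 808 mutants and 2072 in the litter 810 mutant, against 1845 in the heterozygote, 1705 and 1705 in wildtype littermates. Every mutant was above every control. The fold change was 0.78 ± 0.19 (SE; adjusted p = 0.024) between littermates, 0.65 ± 0.17 (SE; adjusted p = 0.042) with the length trend removed and 0.60 ± 0.27 (SE; adjusted p = 0.305) over all 6 embryos. Leaving out any of the controls gave an adjusted p of 0.0828 to 0.0997, and quantile normalisation 0.348. Per kb it was the highest member, with 1075 per kb in the mutants and 692 per kb in the controls, and it made up 66.0%, 71.2% and 57.2% of the summed F-box level in the mutants, against 53.8%, 51.8% and 50.5% in the controls.

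Of the 4 lower Fbxo genes among 29 (11.3% of all genes were lower), Fbxo38 was the firmest. It is known in T cells as a receptor for PD-1. Fbxo38 had 7.99 and 13.3 in the litter 808 mutants and 81.98 in the litter 810 mutant, against 72.9 in the heterozygote, 73.6 and 50.4 in wildtype littermates. Both litter 808 mutants were under every control and the litter 810 mutant was above every control. The fold change was -2.54 ± 0.40 (SE; adjusted p = 0.0046) between littermates and -2.15 ± 0.38 (SE; adjusted p = 0.011) with the length trend removed, and the call was kept under every alternative run (adjusted p at most 0.048).

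Fbxo34, Fbxo42 and Fbxo45 had the same arrangement, with the litter 808 mutants low and the litter 810 mutant within or above the controls. Fbxo34 had 46.5 and 34.4 in the litter 808 mutants and 102 in the litter 810 mutant, against 125 in the heterozygote, 87.4 and 107 in wildtype littermates, with a fold change of -1.37 ± 0.30 (SE; adjusted p = 0.016). Of the 60-base windows of Fbxo34 16.5% also occur in other annotated genes, among them Gm7224, so its reads may be shared. FBXO42 is a receptor that acts on p53 in human cells. Fbxo42 had 18.1 and 21.6 in the litter 808 mutants and 71.7 in the litter 810 mutant, against 62.9 in the heterozygote, 39.2 and 69.9 in wildtype littermates, with a fold change of -1.44 ± 0.38 (SE; adjusted p = 0.031). FBXO45 works with the RING protein MYCBP2 and without CUL1. Fbxo45 had 9.07 and 31.7 in the litter 808 mutants and 114 in the litter 810 mutant, against 59.6 in the heterozygote, 69.8 and 122 in wildtype littermates, with a fold change of -2.16 ± 0.52 (SE; adjusted p = 0.023). With the length trend removed, Fbxo34 was still called and Fbxo42 and Fbxo45 were not (adjusted p = 0.191 and 0.053). Without each control in turn the adjusted p was 0.053 to 0.073 for Fbxo34, 0.058 to 0.112 for Fbxo42 and 0.057 to 0.092 for Fbxo45, and without mutant 6 that of Fbxo42 was 0.090 and that of Fbxo45 was 0.093. The Fbxo45 call was also lost with edgeR (adjusted p = 0.060).

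Of the other Fbxo genes named here, FBXO31 is a receptor for cyclin D1, FBXO5 (EMI1) inhibits the anaphase-promoting complex, and FBXO30 is needed for meiosis in mouse oocytes. Fbxo31 had 215, 208 and 198 in the mutants, against 265, 232 and 296 in the controls, all mutants being below the controls by a small margin (fold change -0.32 ± 0.22 (SE; adjusted p = 0.350)). Fbxo5 had 135, 149.7 and 75.4 in the mutants, against 113, 124 and 65.1 in the controls, with overlap (fold change 0.55 ± 0.32 (SE; adjusted p = 0.277)). Fbxo30 had 3.27, 13.03 and 35.1 in the mutants, against 15.7, 26.7 and 18.6 in the controls, the litter 810 mutant being the highest embryo (fold change -1.43 ± 0.64 (SE; adjusted p = 0.155); adjusted p = 0.033 without mutant 7). Fbxo25 had 12.7, 1.23 and 9.69 in the mutants, against 0.307, 2.49 and 0 in the controls, and was higher in mutants at an unadjusted p over all 6 embryos only (fold change 2.05 ± 0.88 (SE; adjusted p = 0.286)). The remaining Fbxo genes did not pass, and their log2 fold changes between littermates ran from -1.74 in Fbxo18 to 1.76 in Fbxo46.

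In level per kb of transcript, the order in the controls began with Fbxo15 (692) and Rnf7 (511). Nedd8 (149), Cul5 (133), Cand1 (123), Skp1a (111) and Btrc (97.1) followed, neighbours among these 5 differing by less than the larger of the SDs of the pair. The gaps from Fbxo15 to Rnf7, from Rnf7 to Nedd8 and from Btrc to Cul1 (72.7) were larger than that. The lowest were Fbxl2 (0.162), Fbxl4 (0.181) and Fbxo10 (0.352). Fbxw7, at 0.399 per kb, was number 59 of the 63.

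The litter 810 mutant did not repeat all of these differences. It was below every control in 19 members (29.6% of all genes) and above every control in 22 (29.1% of all genes). Of the 11 members lower between littermates it was below all controls in 6 (Cand1, Cul5, Fbxl14, Fbxw8, Fbxw11 and Fbxw24), above all controls in 2 (Fbxo38 and Fbxo42) and within them in 3 (Cul4a, Fbxo34 and Fbxo45). Of the 6 higher members it was above all controls in 5 and within them in 1 (Rnf7). The same controls serve both comparisons, so these counts are not independent of the littermate calls. Fbxw24, moreover, entered the test only through the controls. The library of the litter 810 mutant was deeper than those of the litter 808 mutants and closer in depth to the controls. It also had the highest summed value of blood markers, 7305, where the controls had 5.39 to 5447. The part of depth or of blood transcripts in these counts was not tested.

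Genes that work with these ligases were counted in lists, with the 2 genes of smallest p over all 6 embryos given for each. Between littermates 11.3% of all genes were lower and 5.85% higher, and with the length trend removed 6.70% and 2.89%. Of 10 neddylation genes (with Nedd8) none was lower and 2 were higher between littermates, Nedd8 and Dcun1d5, which helps to load NEDD8. Dcun1d5 had 173 and 167 in the litter 808 mutants and 89.4 in the litter 810 mutant, against 76.2 in the heterozygote, 65.4 and 85.4 in wildtype littermates (fold change 1.17 ± 0.26 (SE; adjusted p = 0.017)). With the length trend removed none was lower and 2 were higher, Dcun1d5 and Ube2f. Of 9 COP9 signalosome genes none was lower and 2 were higher, Cops3 and Cops4, and both were lost with the length trend removed. Cops3 had 139, 176 and 100.3 in the mutants, against 77.2, 63.98 and 81.1 in the controls (fold change 1.08 ± 0.27 (SE; adjusted p = 0.025)), and Cops8, the second by p over all 6 embryos, had 194, 180.2 and 146 in the mutants, against 133, 122 and 78.8 in the controls (fold change 0.78 ± 0.28 (SE; adjusted p = 0.090)). Of 10 E2 enzymes and ARIH partners 1 was lower, Ube2d2a, and 1 higher, Ube2l3, the E2 of ARIH1, and with the length trend removed none was lower and 2 higher, Ube2l3 and Ube2d3. Ube2d2a had 24.7, 31.5 and 56.5 in the mutants, against 69.3, 88.2 and 76.6 in the controls (fold change -1.45 ± 0.32 (SE; adjusted p = 0.017); -0.83 ± 0.31 (SE; adjusted p = 0.131) with the length trend removed from its transcript of 8159 bases), and Arih1, a ligase that primes SCF substrates, had 34.1, 59.7 and 49.6 in the mutants, against 74.4, 97.3 and 99.8 in the controls (fold change -0.97 ± 0.34 (SE; adjusted p = 0.080)).

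Adaptors and receptors of other cullins held 8 lower and 2 higher genes among 21 (11.3% and 5.85% of all genes), and 6 and 1 with the length trend removed (6.70% and 2.89% of all genes), with a median between littermates of -0.87. The lower ones were Ddb1, Vprbp, Dtl, Vhl, Klhl9, Klhl12, Klhl21 and Kctd10, and the higher ones the elongin genes Tceb1 and Tceb2, which link CUL2 and CUL5 to their receptors. DDB1 is the adaptor of CUL4 and VPRBP (DCAF1) one of its receptors. Ddb1 had 62.4 and 42.5 in the litter 808 mutants and 341 in the litter 810 mutant, against 410.2 in the heterozygote, 502 and 553 in wildtype littermates, with a fold change of -3.21 ± 0.25 (SE; adjusted p = 0.00051). Vprbp had 40.7 and 18.4 in the litter 808 mutants and 152 in the litter 810 mutant, against 194 in the heterozygote, 193 and 166 in wildtype littermates, with a fold change of -2.70 ± 0.34 (SE; adjusted p = 0.0021). In both genes all mutants lay below all controls, the litter 808 mutants far below, as for Cand1.

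Of 4 F-box genes with other names, 3 were lower (11.3% of all genes), Ccnf, Kdm2b and Lmo7, and with the length trend removed Ccnf and Lmo7 were still called and Kdm2b was not (adjusted p = 0.210). Ccnf, which encodes cyclin F, had 50.5 and 55.8 in the litter 808 mutants and 184 in the litter 810 mutant, against 233 in the heterozygote, 211 and 166 in wildtype littermates (fold change -1.90 ± 0.26 (SE; adjusted p = 0.0026)), and Kdm2b, a histone demethylase with an F-box, had 113 and 76.5 in the litter 808 mutants and 137 in the litter 810 mutant, against 194 in the heterozygote, 239.8 and 169.7 in wildtype littermates (fold change -1.09 ± 0.27 (SE; adjusted p = 0.026)). Among 14 genes whose proteins are SCF substrates 6 were lower and none higher (11.3% and 5.85% of all genes), Ctnnb1, Cdc25a, Cry1, Cry2, Wee1 and Jun, as RNA. Cdkn1a, the p21 gene, had 87.1 and 95.6 in the litter 808 mutants and 184 in the litter 810 mutant, against 70.9 in the heterozygote, 42.9 and 41.1 in wildtype littermates, with every mutant above every control and a fold change of 0.85 ± 0.32 (SE; adjusted p = 0.101). Notch1 had 0 and 1.23 in the litter 808 mutants and 1.51 in the litter 810 mutant, against 4.995 in the heterozygote, 16.4 and 5.16 in wildtype littermates, with every mutant below every control and a fold change of -2.53 ± 0.82 (SE; adjusted p = 0.062). Neither of these last 2 passed, and RNA levels say nothing of the turnover of the proteins.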

How the data were processed

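The authors quantified reads per gene with RSEM on the mouse transcriptome (GRCm38, Ensembl release 76) and scaled the counts by TMM in edgeR, and the deposited values are this signal, scaled to a common library size. Submitters' processing notes list CASAVA 1.8.2, cutadapt 1.3 and RSEM 1.2.3. Each column was a whole multiple of a fixed step (100% of values within 0.01 of a read), which returned the reads. Overlapping genes and near-identical copies share reads, since the kit keeps no strand.

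Tests used limma 3.58.1 in R 4.3.3 on log2(value + 1), with a variance trend and empirical Bayes moderation, two-sided, Benjamini-Hochberg adjusted at a threshold of 0.05. They covered the 12099 genes that exceeded a value of 1 in 3 or more embryos, with genotype alone or with litter. This scale makes the fold changes of low genes too small. The paper's methods name edgeR, which fits counts, and mention no covariate. Here the quasi-likelihood test of edgeR 4.0.16 and DESeq2 1.42.0 were run on recovered reads as alternatives. The paper does not say which edgeR test it used, and it reports many differentially expressed genes at an adjusted p under 0.05. The edgeR run here is therefore not a repeat of the paper's, and the reason for the difference was not tested. Further alternatives were a pseudocount of 0.1 or of 5, all genes unfiltered or those with a mean of 10 or more, limma without the trend, scaling by median of ratios or quantiles, a loess trend on transcript length removed (span 0.5; GENCODE release 21), reads thinned to 2962425 (10 draws), the oocyte Fbxw genes left out or summed, and each embryo left out. The scripts were checked on simulated counts.

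Members, marker lists and pathway lists were chosen with earlier results of these data known. Named genes (39) were all core components, called F-box genes, measured oocyte Fbxw genes, the 4 highest and 4 of smallest p in each F-box family, Fbxw7, Fbxw11, Fbxo5, Fbxo15 and Fbxo30; pathway lists give 2 genes of smallest p and the symbols of those called. One member is not reported by name here. Other genes mentioned were chosen after their values were seen. Embryos are separate animals, yet the littermate p-values rest on embryos of 1 litter. Sharing was counted as 60-base windows of a gene's longest annotated transcript found in transcripts of other genes, so it describes that transcript only.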

Additional observations from a re-analysis of the deposited data

How the results depend on the processing

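Of the 17 genes called between littermates none changed direction under any of 284 alternative fits of single genes, and 212 of these kept the call. Leaving out the litter 810 mutant repeats the littermate fold changes, so the 17 calls kept in that setting are no separate check. The genes were picked by these same data, so their kept direction is no independent support. Over all 6 embryos, members called lower and higher numbered 2 and 1 with DESeq2, against 0 and 0, and ranged from 0 to 11 and from 0 to 6 when 1 embryo was left out, the largest counts being those without the litter 810 mutant. Between littermates, 4 lower and 0 higher members were called without the variance trend, against 11 and 6, 3 higher with quantile normalisation, 3 higher with the length trend removed, and 3 to 14 lower and 1 to 6 higher when 1 embryo was left out, with 3 to 4 lower members without any of the controls. The median over the members was -0.042 with DESeq2 over all 6 embryos and -0.42 to 0.017 without 1 embryo (main value -0.20); between littermates it was -0.24 with a pseudocount of 5, -0.14 with the length trend removed and -0.63 to -0.28 without 1 embryo. Leaving out an embryo leaves fewer residual degrees of freedom, a lone mutant of litter 808 is then assumed to vary like the others, and for the other settings the cause was not tested. Quantile normalisation moved the median of all genes to 0.07 over all 6 embryos and 0.10 between littermates, against -0.11 and -0.16, so directions are relative to such shifts.

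Only genes that were not called changed sign. With the length trend removed, the log2 fold change between littermates was 0.33 for Btrc, 0.26 for Fbxl18, 0.59 for Fbxl20, 0.092 for Fbxo31, -0.072 for Fbxw14 and 0.17 for Fbxw2, and over all 6 embryos 0.27 for Btrc, 0.023 for Cul2, 0.16 for Cul3, 0.37 for Fbxl18, 0.51 for Fbxl20, -0.076 for Fbxo5 and 0.023 for Fbxw2. Quantile normalisation gave 0.021 (littermates) and 0.092 (all 6) for Fbxl18 and 0.0072 (all 6) for Fbxl6. Fbxl20 was 0.038 and 0.020 with median of ratios scaling, 0.075 and 0.043 with DESeq2, between littermates and over all 6 embryos, and 0.0051 between littermates with edgeR. Fbxw14 was 0.16 over all 6 embryos with edgeR and, summed with Fbxw24, -0.91 between littermates. Leaving out 1 embryo gave, between littermates, -1.39 to 0.026 for Cul1, -1.05 to 0.040 for Cul2, -2.07 to 0.78 for Cul9, -0.88 to 0.10 for Fbxl18, -0.40 to 0.32 for Fbxl20, -0.78 to 0.076 for Fbxl6 and -0.26 to 1.16 for Fbxw14. Over all 6 embryos it gave -0.13 to 0.00047 for Btrc, -0.50 to 0.25 for Cul2, -0.53 to 0.21 for Cul3, -0.69 to 0.23 for Fbxl18, -0.22 to 0.14 for Fbxl20, -0.36 to 0.070 for Fbxl6, -1.43 to 0.11 for Fbxo30, -0.043 to 0.55 for Fbxo5, -1.10 to 0.45 for Fbxw14 and -1.21 to 0.072 for Fbxw9. Fbxw24 could not be tested without a control, nor could Cul7, Cul9, Fbxl2, Fbxl14, Fbxo25, Fbxw7, Fbxw14 and Fbxw24 among genes with a mean of at least 10. The replicate numbers are embryo numbers within a litter. No paired analysis was possible because the only shared number, 4, belongs to embryos of different litters. Depth limits what can be said of members at or under 3 reads, such as Fbxw24 in the mutants.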
